A study of Gallus gallus with 8 samples.

Results

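Of 26096 regions of open chromatin found in at least 1 of 4 chicken cell types, 728 (2.79%) held a peak in primary fibroblasts and in adult red blood cells (aRBC) and none in the HD3 erythroblast line or in embryonic red blood cells (eRBC). These 728 regions are the subject here. They were selected on the deposited peak lists alone: the 4 lists were merged wherever peaks shared at least 1 bp, and merged regions on chromosomes 1 to 15, 17 to 26 and 28 were kept. Presence and absence of a peak in the 4 lists are therefore the rule and not a finding, and peak strengths in these lists are given as description, with no test.

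The assay was ATAC-seq, which marks open DNA by where the Tn5 transposase can insert adapters. There were 2 samples of each cell type, all of WT genotype and with no treatment named: primary fibroblasts in culture, red blood cells of hens aged 28 to 38 weeks, the HD3 line of chicken erythroblasts in the same culture medium, and red blood cells of embryonic day 10. Each library started from 150000 cells, with 30 min of Tn5 and 10 cycles of PCR, and 1 lane of 1 aRBC sample was run on a Novaseq instrument. HD3 is 1 transformed line and so stands for erythroblasts only as far as that line does. Each cell type has 1 list, so no value below has a replicate error. How its 2 samples entered the list is not stated, and the peak names begin with Fb1, HD32, eRBC2 and aRBC2, which leaves unclear whether a list stands for both samples or for 1. Intervals are 95% Wilson intervals that cover counting error over regions only, and neighbouring regions are not independent of each other.

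Red blood cells of birds keep their nucleus, which becomes small and condensed as the cell matures and is rich in the linker histone H5. Most genes are silent in such a nucleus, so the accessible sites that remain are of interest for how a closed genome is organised. Fibroblasts are connective tissue cells outside the blood lineage, and HD3 cells are arrested at an early, dividing stage of the red lineage. The pattern of lists studied here thus cuts across the red lineage.

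The 728 regions were clustered. Their median width was 201 bp, with quartiles of 145 and 296 bp and a range of 92 to 1771 bp, and together they covered 185.4 kb. The median width was 180 bp over all union regions and 200 bp for regions of fibroblasts and HD3 only. It was 132 bp for fibroblasts only, 137 bp for aRBC only and 393 bp for regions of all 4 lists. In 697 of them each list had 1 peak, 27 had 3 peaks in all and 4 had 4. They lay in 309 windows of 100 kb. In 180 of these windows the region was alone, while 37 windows with at least 5 of them held 300 regions (41.2%). The median distance from one to the next was 5212 bp, and 36.0% (32.6% to 39.5%) had another within 2 kb. Among the 891 regions of fibroblasts and HD3 only, by comparison, the median distance to the next was 295786 bp and 1.57% had one within 2 kb. For the 1303 regions of eRBC and aRBC only these values were 40955 bp and 12.8%. Larger sets came closer, with 21325 bp and 17.8% for the 2010 regions of aRBC only. For the 7887 regions of fibroblasts only they were 20686 bp and 13.9%. Over all 26096 union regions, where any region can be the next, they were 5269 bp and 35.15%.

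Peak-dense parts of the genome held most of them. A window of 100 kb was called dense where any 1 of the 4 lists had at least 10 peaks in it, and 146 windows on these chromosomes were dense. Of the 728 regions 435 (59.8%, 56.1% to 63.3%) lay in dense windows, against 10.1% of all union regions. The share was 1.23% (0.691% to 2.20%) for regions of fibroblasts and HD3 only and 17.2% (12.8% to 22.6%) for the 227 regions of fibroblasts and eRBC only. It was 14.2% for the 113 regions of HD3 and aRBC only, 13.4% for those of eRBC and aRBC only, and 7.46% for the 2827 regions of all 4 lists. Next highest was the pattern that adds an eRBC peak, with 32.1% (28.3% to 36.1%) of the 552 regions of fibroblasts, eRBC and aRBC, followed by 23.7% of the 2010 regions of aRBC only. The share of the fibroblast and aRBC regions was thus above that of each of these other patterns. The intervals do not cover the clustering of regions, so they do not measure how firm this difference is. Windows and patterns come from the same lists, and the peaks of a region count toward its window. Counted without their own peaks, 299 of the 728 (41.1%, 37.6% to 44.7%) still lay in dense windows. With the same treatment the shares were 15.4% for fibroblasts and eRBC, 11.5% for HD3 and aRBC, 7.06% for eRBC and aRBC and 1.23% for fibroblasts and HD3. The patterns of fibroblasts, eRBC and aRBC and of aRBC only were not recounted in this way.

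Windows were also counted in place of regions, with the same dense windows. A pattern's own peaks counted toward its windows here too, and no recount without them was made. The window shares are therefore no separate support. Of the 309 windows with at least 1 of the 728 regions 99 were dense (32.0%, 27.1% to 37.4%). The nearest pattern was fibroblasts, eRBC and aRBC, with 83 of 419 windows (19.8%, 16.3% to 23.9%). For HD3 and aRBC it was 14 of 107 (13.1%), for fibroblasts and eRBC 24 of 203 (11.8%) and for fibroblasts and HD3 8 of 819 (0.977%). Of the 99 dense windows with at least 1 of the 728 regions, 71 reached 10 peaks in the fibroblast list, 69 in the aRBC list, 23 in the eRBC list and 0 in the HD3 list. They held 9.75% of the fibroblast peaks and 13.7% of the aRBC peaks of these chromosomes, but 5.39% of the eRBC peaks and 2.49% of the HD3 peaks. These counts include the regions' own peaks, which the rule places in the fibroblast and aRBC lists, so their direction is fixed by the rule and no result is read from it.

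**Figure D1:**
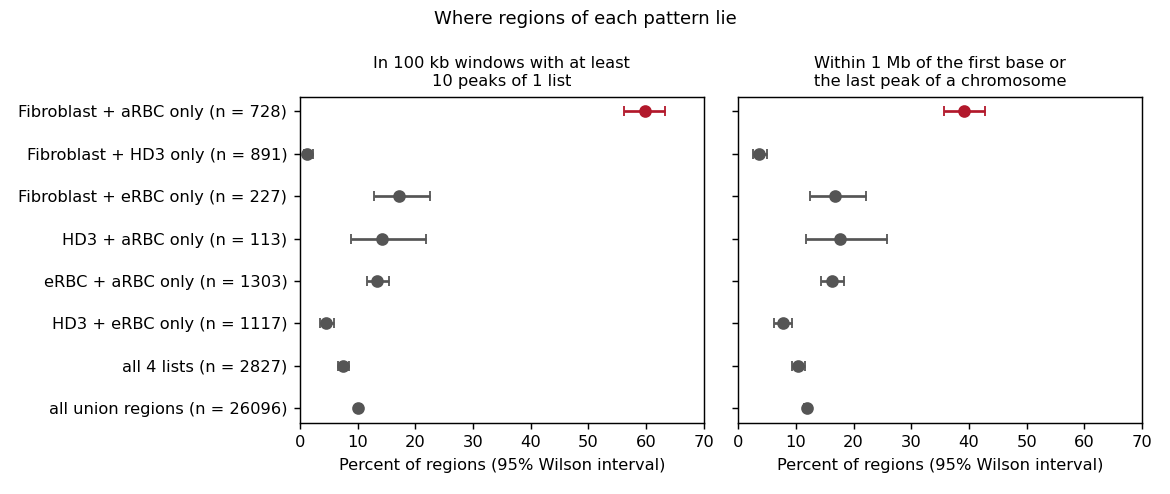
Percent of regions of each pattern of lists that lay in dense windows of 100 kb (left) or within 1 Mb of a chromosome end (right), with 95% Wilson intervals (counting error over regions only); the fibroblast and aRBC regions are in red at the top, the other patterns and all union regions in grey. The red points, at 59.8% and 39.1%, lie to the right of all other patterns shown.

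Many of the regions also lay near the ends of chromosomes. The first base, or the last peak of any list, served as the end, since no chromosome lengths came with the lists. Of the 728 regions 285 (39.1%, 35.7% to 42.7%) lay within 1 Mb of an end, against 11.9% of all union regions, 3.59% of the fibroblast and HD3 regions and 16.2% of the eRBC and aRBC regions. The nearest patterns were aRBC only, with 23.6%, and fibroblasts, eRBC and aRBC, with 22.1%. Within 100 kb of an end lay 83 of them (11.4%), against 2.75% of all union regions, 7.36% of the regions of aRBC only, 7.07% of those of fibroblasts, eRBC and aRBC and 0.337% of the fibroblast and HD3 regions.

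The chicken karyotype combines a few large chromosomes with many small, gene-rich ones, and the regions were denser on the small ones. Chromosomes 1 to 5 held 337 regions (0.553 per Mb), chromosomes 6 to 10 held 121 (0.815 per Mb), and chromosomes 11 to 28 held 270 (1.55 per Mb). The last group made up 37.1% (33.7% to 40.7%) of the regions, against 26.6% of all union regions, 13.02% of the fibroblast and HD3 regions and 42.3% of the eRBC and aRBC regions. The lean toward small chromosomes was therefore not particular to the fibroblast and aRBC regions. Of the 293 regions outside dense windows 19.1% lay on chromosomes 11 to 28.

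Single chromosomes differed widely. Chromosome 1 held 157 regions and chromosome 2 held 93. These were 3.25% and 2.69% of the union regions there, near the 2.79% over all chromosomes kept. Chromosome 14 held 60, at 3.71 per Mb and 8.51% of its union regions. On chromosome 14, 57 of the 60 lay in dense windows and 55 within 1 Mb of an end. All 32 regions of chromosome 19 lay within 1 Mb of an end. Chromosome 25 had the highest density at 6.30 per Mb with 25 regions. They were 7.46% of its 335 union regions, a share below that of chromosome 14. Chromosome 17 had none of the 728, although 42 of its 324 union regions had peaks of both fibroblasts and aRBC.

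Seen from the other side, a site shared by fibroblasts and aRBC lacked HD3 and eRBC peaks more often in dense windows than elsewhere. Of 4150 regions with peaks of both fibroblasts and aRBC, the 728 made up 17.5% (16.4% to 18.7%). In dense windows they were 435 of 833 such regions (52.2%, 48.8% to 55.6%), and outside dense windows 293 of 3317 (8.83%, 7.92% to 9.85%). An HD3 peak was present in 26.5% of these shared regions in dense windows and in 79.9% outside them, and an eRBC peak in 46.6% and 90.2%. Near chromosome ends the contrast had the same direction, with 40.3% within 1 Mb of an end and 12.9% farther in. The dense windows here count the peaks of the 728 regions, and windows and pattern come from the same lists. Outside windows that were dense without those peaks the share was 12.2%, in place of 8.83%. How far the shared lists set the contrast was not tested.

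The 6 windows with most of these regions show how they were arranged. They were picked for these regions, whose peaks the rule places in the fibroblast and aRBC lists. The peak counts below include those peaks. Their lean toward both lists therefore follows in part from the choice of windows, and no result is read from it. The window on chromosome 14 from 100001 to 200000 held 30 of them among 67 union regions. It had 51 fibroblast, 57 aRBC, 6 HD3 and 18 eRBC peaks, and 5 of its regions had peaks of all 4 lists. Midpoints of neighbouring fibroblast and aRBC regions there lay a median of 1946 bp apart. The chromosome 2 window from 142700001 to 142800000 held 26 of them among 51 union regions, with 43 fibroblast peaks, 39 aRBC peaks, 4 eRBC peaks and 0 HD3 peaks. In this window no HD3 peak was among those analysed, while on chromosome 14 the HD3 and eRBC peaks were interspersed with the others. The flanking HD3 peaks had consecutive running numbers (described below) for 0 of these 26 regions, against 19 of the 30 on chromosome 14. Numbered HD3 peaks that are absent from the list used here could therefore lie in the chromosome 2 window.

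The other windows were of the same kind. On chromosome 8 from 11300001 to 11400000 there were 14 of the regions among 40, with 37 fibroblast, 25 aRBC, 10 eRBC and 6 HD3 peaks. On chromosome 1 from 90800001 to 90900000 there were 13 among 36, with 29 fibroblast, 22 aRBC, 4 eRBC and 1 HD3 peak. Further along chromosome 14, from 300001 to 400000, there were 12 among 31. On chromosome 19 from 200001 to 300000 they were 12 of 17 union regions, with 18 fibroblast, 15 aRBC, 2 eRBC and 2 HD3 peaks. By the rule each of these 12 has a peak in both lists. Most of the fibroblast and aRBC peaks there were thus their own. Without these 6 windows 621 regions were left, of which 52.8% lay in dense windows.

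**Figure D2:**
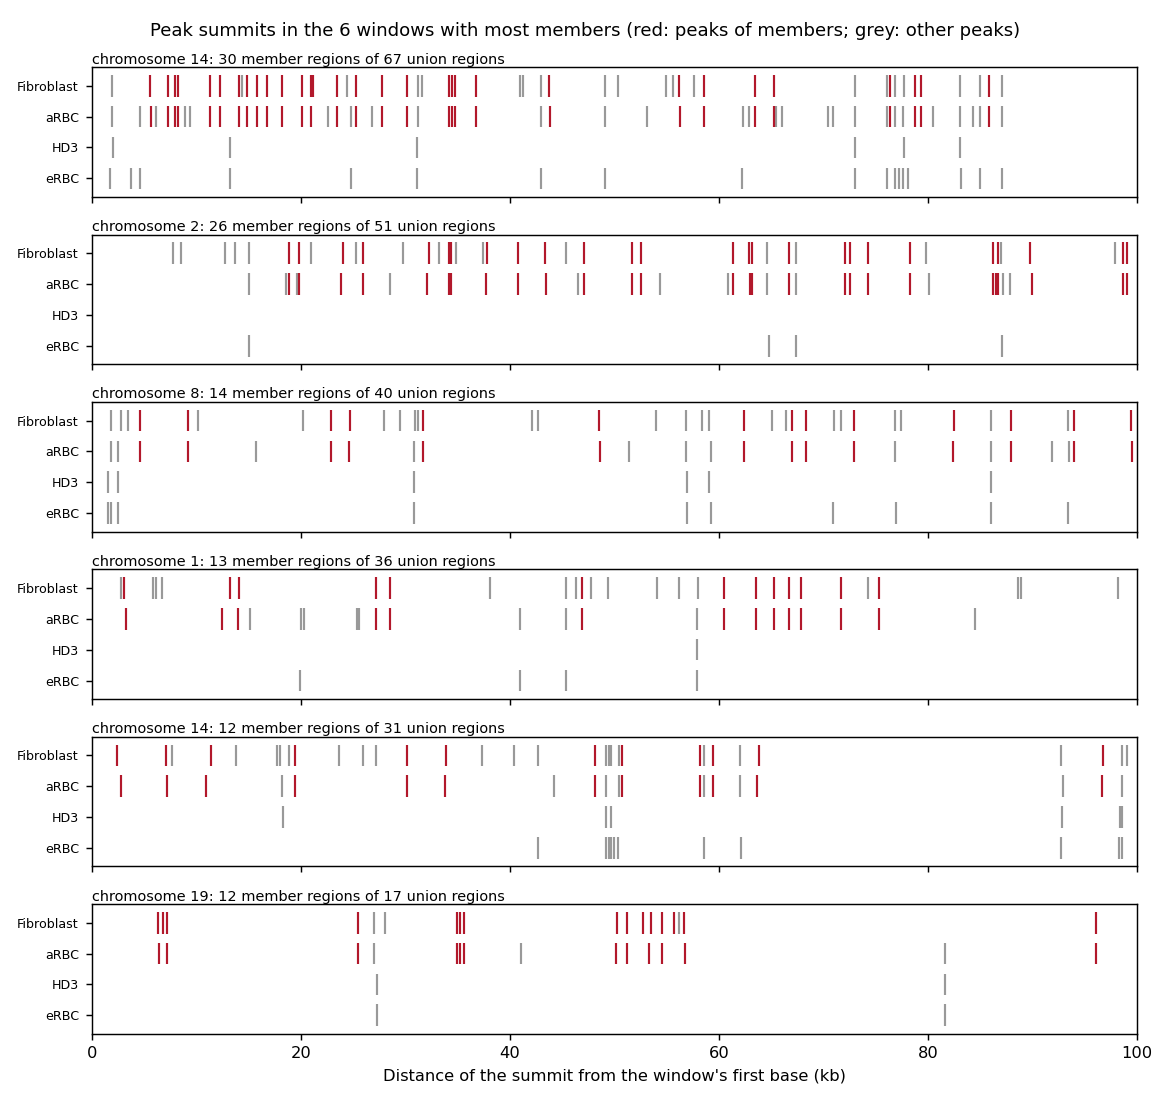
Peak summits in the 6 windows of 100 kb with most fibroblast and aRBC regions, as distance in kb from the first base of each window, with a row for each list; red ticks are peaks of the 728 regions and grey ticks are all other peaks. Fibroblast and aRBC rows carry many aligned red ticks, as in the first window with its 30 regions, while the HD3 row is sparse or, on chromosome 2, empty. By the rule red ticks can stand only in the fibroblast and aRBC rows, and the windows were picked for them.

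Around the regions, sites of only 1 cell type were common too. Within 10 kb of 58.5% of the 728 lay a region of fibroblasts only and within 10 kb of 52.2% a region of aRBC only, against 20.8% and 2.25% for the fibroblast and HD3 regions and 21.5% and 27.1% for the eRBC and aRBC regions. A region of all 4 lists lay within 10 kb of 24.3% of them, against 4.71% of the fibroblast and HD3 regions and 23.6% of the eRBC and aRBC regions. In dense windows the fibroblast and aRBC regions made up 16.5% of 2643 union regions, regions of fibroblasts only 24.2% and regions of aRBC only 18.0%.

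The fibroblast and aRBC peaks of a region sat at nearly the same base. The summit is the base with the highest pileup in a peak, and the distance between both summits had a median of 17 bp (95% interval from order statistics, 13 to 18 bp). It was at most 10 bp in 41.4% of the 728 regions and at most 50 bp in 77.1% (73.9% to 80.0%). Summits of regions of fibroblasts and HD3 only were a median of 35 bp apart (31 to 38 bp), with 65.2% (62.0% to 68.3%) within 50 bp, and those of fibroblasts and eRBC only were 35 bp apart (31 to 43 bp). For eRBC and aRBC only, both red blood cells, the median was 26 bp (23 to 28 bp) with 73.5% within 50 bp. In regions of all 4 lists the fibroblast and aRBC summits were 34 bp apart, and in regions of fibroblasts, eRBC and aRBC 30 bp (26 to 35 bp). In dense windows alone the medians were 13 bp (11 to 17 bp) for the fibroblast and aRBC regions and 19 bp (13 to 26 bp) for the one that adds eRBC, with intervals that meet. The summits of the 728 regions were thus closer than those of each of these other patterns. Outside dense windows their median was 19 bp (16 to 25 bp), whose interval meets that of the eRBC and aRBC regions but lies below the other intervals given over all windows.

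**Figure D3:**
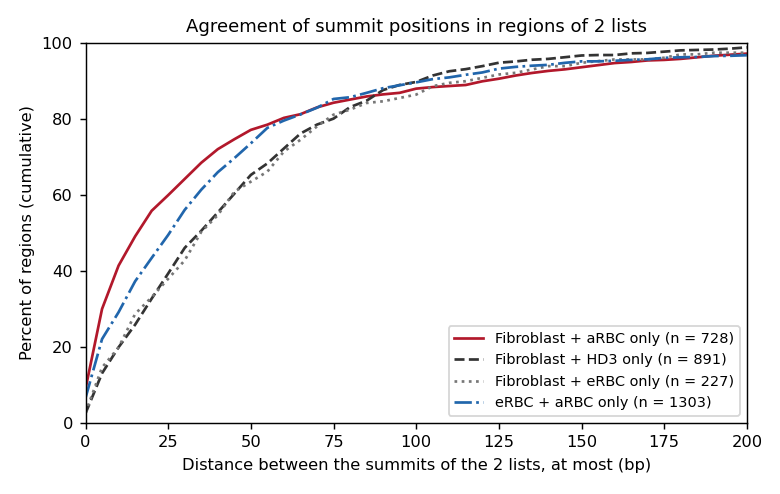
Cumulative percent of regions (vertical axis) whose summits in both lists lie at most a given distance apart (horizontal axis, bp), for 4 patterns of 2 lists. The red curve of the fibroblast and aRBC regions rises fastest, reaching 41.4% at 10 bp and 77.1% at 50 bp, before the curves come together at larger distances.

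The peaks of the regions ran from among the weakest to among the strongest of both lists. Strength was the fold enrichment of the deposited lists, which is the pileup at the summit over the local background expected there, and its percentile within its own list, where 100 is the strongest peak. The 756 fibroblast peaks of the regions had a median fold of 4.87 (1.79 to 43.5), and the 735 aRBC peaks 5.31 (1.95 to 46.9). Their median percentile was 54.3 in the fibroblast list and 34.8 in the aRBC list. Among the fibroblast peaks 171 (22.6%) were at or above percentile 90 of their list and 148 (19.6%) at or below percentile 10. Both extremes were thus crowded, but in dense windows this was not particular to these regions. There the shares were 23.7% and 21.1%, against 18.4% and 22.9% of all fibroblast peaks. Regions of fibroblasts, eRBC and aRBC had 21.4% and 31.6% there. Outside dense windows the shares of these regions were 20.98% and 17.4%, against 8.99% and 4.09% of all fibroblast peaks. Among the aRBC peaks of these regions 34 (4.63%) were at or above percentile 90 and 138 (18.8%) at or below percentile 10. Of all aRBC peaks the shares were 10.9% and 8.86%, and in regions of aRBC only 0.746% and 18.6%. Regions of all 4 lists had medians of 70.7 and 79.1 in the fibroblast and aRBC lists. In 346 regions the −log10 q was at least 10 in both lists.

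Both lists ranked the regions alike. Over the 728 regions, Spearman's rho between the percentile in the fibroblast list and that in the aRBC list was 0.75, with 0.82 over the 435 in dense windows and 0.68 over the 293 outside them. The values for other pairs of lists were 0.19 over the 891 regions of fibroblasts and HD3 only, 0.15 over the 227 of fibroblasts and eRBC only and 0.40 over the 1303 of eRBC and aRBC only. Between fibroblasts and aRBC rho was 0.54 over the 552 regions that add an eRBC peak, with 0.80 in dense windows, and 0.34 over the 2827 regions of all 4 lists. In dense windows the pattern with an eRBC peak was thus ranked about as alike by both lists as the 728 regions. These correlations run across regions of single lists, which share libraries and neighbours, and are given as description.

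**Figure D4:**
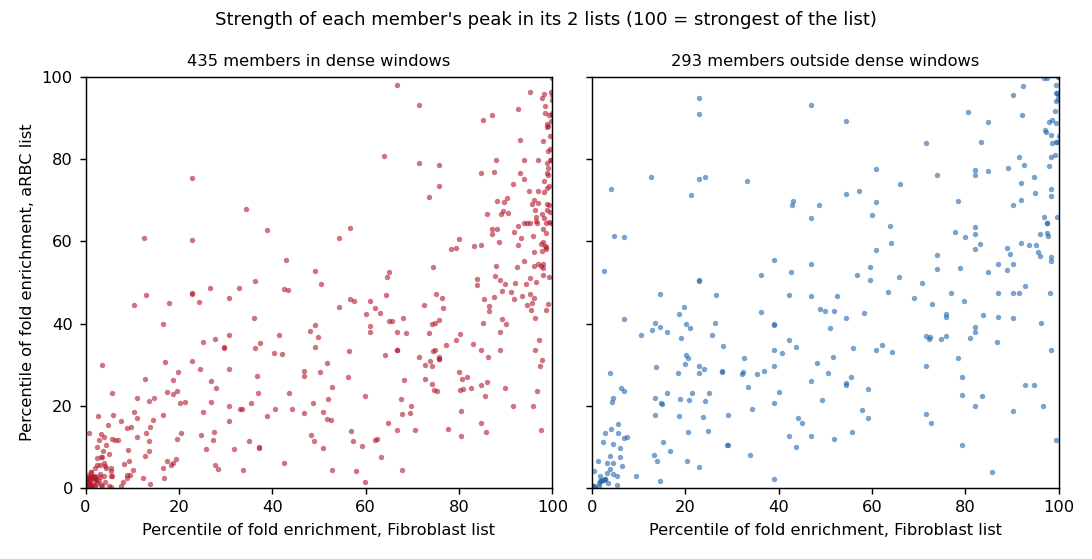
Percentile of fold enrichment in the aRBC list (vertical axis) against that in the fibroblast list (horizontal axis) for each region, 435 in dense windows on the left in red and 293 outside them on the right in blue; 100 is the strongest peak of a list and a region with several peaks shows its strongest. Points rise together in both panels (Spearman's rho 0.82 and 0.68), with crowding at the low end of both lists and at the high end of the fibroblast list.

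The fold and the −log10 p of each deposited peak together give 2 further values, the whole number of reads or fragments stacked at the summit (pileup) and the local background. At the summits of the regions the fibroblast pileup had a median of 35 (14 to 325) and the aRBC pileup 40 (13 to 732). The lowest local background of a list was shared by many peaks and differed between lists: 3.31 in fibroblasts, 2.44 in aRBC, 1.63 in eRBC and 0.644 in HD3. Such a minimum grows with the number of reads behind a list and with the length given to each read. It was lowest for HD3 and highest for fibroblasts.

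The lists also differed in the enrichment a peak needed, which bears on what the absence of an HD3 or eRBC peak means. At the minimum background the weakest HD3 peak had a pileup 9.32 times the background and the weakest eRBC peak 5.52 times, against 3.93 times in fibroblasts and 4.51 times in aRBC. These values hold at the minimum only. On a higher background peaks were called at a lower enrichment. The lowest folds were 3.24 in HD3 and 1.93 in eRBC. Fold adds 1 to pileup and to background, so these folds cannot be set against the values of 9.32 and 5.52. The shares that follow can thus be too high where the HD3 or eRBC background was raised. In 502 of the 728 regions (69.0%) the pileup over background was below the HD3 value in both the fibroblast and the aRBC list, and in 232 (31.9%) it was below the eRBC value in both. In these regions a site as strong in HD3 or eRBC cells as in fibroblasts and aRBC might not have been called at the minimum background. An unopened site and an uncalled one cannot be told apart. The aRBC peaks of the 728 fell below the HD3 value in 73.8%. This compares with 22.8% of the regions of all 4 lists and 59.6% of those of fibroblasts, eRBC and aRBC. The fibroblast peaks of the 728 did so in 81.0%, against 82.1% of the regions of all 4 lists and 92.5% of the regions of fibroblasts and HD3 only. On that side the shares of the 728 and of regions with an HD3 peak were thus close, or higher with one. Below the eRBC value were 46.3% of the fibroblast peaks and 38.5% of the aRBC peaks of the 728. In regions of all 4 lists these shares were lower, at 21.9% and 5.66%. In regions of fibroblasts, eRBC and aRBC they were 49.1% and 29.5%.

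Local background was often raised at the regions. Of their fibroblast peaks 38.4% (35.0% to 41.9%) had a background over 2 times the list minimum and 15.2% over 5 times, against 6.82% and 2.33% of all fibroblast peaks. In regions of fibroblasts and HD3 only the shares were 0.224% and 0 of 892 peaks, which allows up to 0.429%, the upper Wilson bound. Of the aRBC peaks 54.3% had a background over 2 times the minimum and 24.2% over 5 times, against 47.2% and 7.76% of all aRBC peaks. The background was over 2 times the minimum in both lists in 248 regions (34.1%), against 150 of the 552 regions of fibroblasts, eRBC and aRBC (27.2%) and 97 regions of all 4 lists (3.43%), and at most 2 times in both in 311 (42.7%). Across the 728 regions the backgrounds of both lists had a Spearman's rho of 0.77, and across the regions of fibroblasts, eRBC and aRBC 0.75. In that pattern 30.4% of the fibroblast peaks and 60.6% of the aRBC peaks had a background over 2 times the minimum, so it resembled the 728 regions in this respect.

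Part of this went with the dense windows. In dense windows 48.6% of the fibroblast peaks of the regions passed 2 times the minimum, against 67.3% in the regions of fibroblasts, eRBC and aRBC and 43.5% of all fibroblast peaks there. Outside dense windows the shares were 23.3% (18.9% to 28.3%), 11.8% and 2.11%, so there the regions had a raised background more often than other fibroblast peaks. Their aRBC peaks differed less at 2 times the minimum, with 43.9% outside dense windows against 42.2% of all aRBC peaks there. In dense windows these aRBC shares were 61.3% and 69.8%. Over 5 times the minimum they were 13.2% and 3.21% outside dense windows, and 31.7% and 28.6% in them. A high background moved with the pattern, with the dense windows and with the chromosome 14 window, where the regions had a median background of 9.20 times the minimum in fibroblasts and 29.5 times in aRBC. In the chromosome 2 window the medians were 1.27 and 1.55 times, so that window was dense at a background close to the minimum. With the background at most 2 times the minimum in both lists, 48.2% of the 311 regions left still lay in dense windows. The part of local background in the pattern was not tested beyond these counts.

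**Figure D5:**
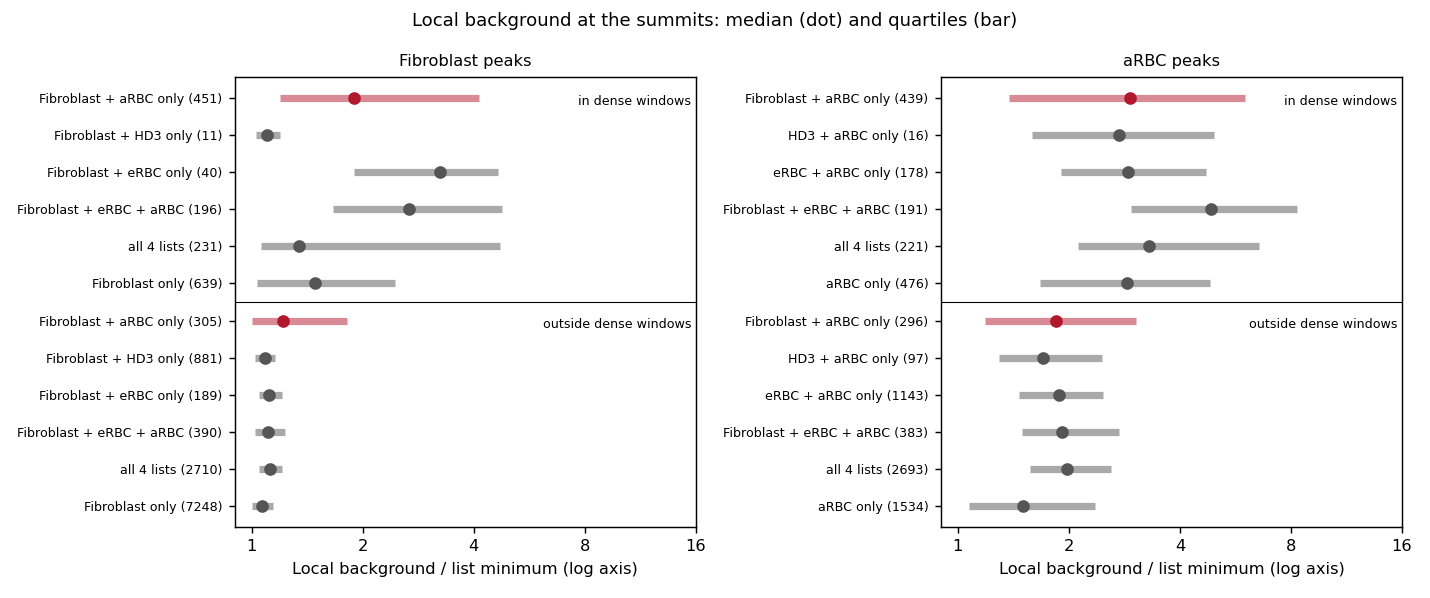
Local background at the summit over the lowest background of the list (log axis), for fibroblast peaks (left) and aRBC peaks (right) by pattern of lists, in dense windows (above the line) and outside them (below it), with dots for medians, bars for quartiles and the number of peaks in brackets. The fibroblast and aRBC regions are in red; in dense windows their fibroblast peaks have a median of 1.896, below the 2.67 of the pattern that adds eRBC, and outside dense windows their upper quartile of 1.81 is above those of the other fibroblast patterns.

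A few regions were strong in both lists, and these were ranked by the lower of both percentiles. First was the region on chromosome 20 from 516502 to 516599 (98 bp), with a fold of 43.5 in fibroblasts (rank 5 of 17681) and 43.0 in aRBC (rank 9 of 11395). Its pileups were 272 and 268, its summits lay 6 bp apart, and no HD3 or eRBC peak was closer than 5068 bp. This site was as strong as almost any in either list and lay outside dense windows, though its background was 1.60 and 2.16 times the minimum. On chromosome 3 from 6969512 to 6969812 the fold was 20.8 in fibroblasts (rank 42) and 46.9 in aRBC (rank 8), with both summits at the same base. The nearest HD3 peak lay 140231 bp away and the nearest eRBC peak 1316837 bp away, so this strong site was far from any peak of either list. On chromosome 4 from 18752502 to 18752622 the fold was 14.95 in fibroblasts and 25.96 in aRBC, at a background of 1.21 and 1.11 times the minimum.

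Of the 10 regions ranked first, 3 lay in dense windows. These were on chromosome 15 from 271109 to 271417, with a fold of 23.9 in fibroblasts and 38.0 in aRBC, on chromosome 19 from 10233655 to 10233953, with 17.4 and 22.7, and on chromosome 12 from 20360657 to 20360819, with 10.4 and 22.2. All 3 lay within 1 Mb of a chromosome end. Of the others, 2 were on chromosome 1, from 4312028 to 4312186 with a fold of 9.68 in fibroblasts and 34.1 in aRBC, and from 165875531 to 165875669 with 9.28 and 35.9. Chromosome 5 had 1 from 58263730 to 58263866 with 14.4 and 22.7, and chromosome 4 another from 24948245 to 24948722 with 17.9 and 22.4, whose nearest eRBC peak was 931 bp away. In each of these 7 the aRBC fold exceeded the fibroblast fold, but the lists differ in their minimum background, and fold values are not compared further between them. Outside dense windows the 10 ranked first also took in chromosome 10 from 616922 to 617103 (21.2 and 21.8), chromosome 2 from 38077013 to 38077194 (19.8 and 20.8) and chromosome 1 from 137924917 to 137925069 (14.2 and 20.4).

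The regions with most peaks were 4 that joined 4 peaks each. The widest, on chromosome 19 from 29041 to 30811, spanned 1771 bp, and its strongest peaks had a fold of only 2.51 in fibroblasts and 3.43 in aRBC at a background of 12.5 and 32.5 times the minimum. Those on chromosome 1 from 141508633 to 141509659 and from 141295864 to 141296877 had folds of 6.72 and 5.33 in fibroblasts and 5.36 and 6.85 in aRBC. The narrowest of the 4, named after its values were seen, lay in a dense window on chromosome 14 from 2358 to 3093, with folds of 7.86 in fibroblasts and 6.34 in aRBC.

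At the edge of the rule, the nearest HD3 or eRBC peak lay between 37 and 597594 bp away, with a median of 6282 bp. It was within 200 bp in 29 regions (3.98%) and within 1 kb in 140 (19.2%, 16.5% to 22.3%). The HD3 peaks were the farther ones, at a median of 20042 bp against 7186 bp for eRBC. Just inside the rule were regions on chromosome 2 from 79555145 to 79555428, chromosome 5 from 57843926 to 57844200 and chromosome 19 from 175810 to 176676, whose nearest such peaks were 37, 50 and 78 bp away. Just outside it were regions on chromosome 24 from 6348138 to 6348434, chromosome 4 from 65758173 to 65758430 and chromosome 14 from 6974789 to 6975040, where an HD3 or eRBC peak overlapped by 20, 39 and 49 bp. Only these 3 of 3422 regions outside the rule had an overlap of at most 50 bp, so few regions depended on a narrow overlap.

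The names of the peaks carry running numbers, and these have gaps, so that some numbered peaks are absent from the lists used here. Of the 649 regions with an HD3 peak on both sides, the numbers of those flanking peaks were consecutive for 237 (36.5%, 32.9% to 40.3%), which leaves no room for another numbered HD3 peak there. For eRBC they were consecutive in 451 of 686 (65.7%), and for both lists in 175 of 648 (27.01%, 23.7% to 30.5%). In the other regions an HD3 or eRBC peak that is absent from the lists used here could have overlapped the region, and whether one did was not tested. The shares were 34.2% and 61.3% around regions of fibroblasts only.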

How the data were processed

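The 4 deposited peak lists, 1 for each cell type and in narrowPeak layout, were the only data used. The submitters' processing notes name Bowtie2 2.3.5, SAMtools 1.9, MACS2 2.1.2 and the build GRCg6a, without their roles. How the 2 samples of a cell type entered its list, and whether Tn5 offsets were corrected, is not given in the sources used here. Each deposited peak has a fold enrichment (a ratio of pileup plus 1 to background plus 1), −log10 p and −log10 q values, a display score and a summit offset, all as the authors deposited them. They belong to single peaks. Between lists, only percentiles within each list and ratios of pileup to background were set side by side, as description.

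Positions were changed from a first base of 0 to 1. Merging was done with pandas 2.3.3 and NumPy 2.4.6 in Python 3.11.15 and gave the same 728 regions as bedtools 2.31.1. Pileup and local background were solved from fold and −log10 p, with SciPy 1.17.1, as the whole-number pileup whose Poisson p matches. The largest remaining difference in −log10 p was 3.1e-04. On simulated data all 15 planted patterns of 10000 regions and all 4962 pileups were found (100%). The simulated peaks of a region always overlapped, and the regions stood well apart. Pileups were drawn well above their background, and draws without a finite p were left out. The check therefore does not cover closely spaced regions or the weakest peaks of the lists. Figures were drawn with matplotlib 3.10.9.

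The members and all lists and rules were chosen with earlier results of these data known. Named regions were the 10 with the best lower percentile of both lists by fold, the 10 best outside dense windows, the 5 windows with most members (6 because of a tie), the 3 with most peaks (the widest, of 4 with a tie) and the 3 closest to an HD3 or eRBC peak. The gene table at hand is of another assembly than the lists, and no genome was used here. Gene lists, cell type markers, promoter shares, GC content and motifs were therefore not analysed here, and the cell type labels were not checked against marker genes.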

Additional observations from a re-analysis of the deposited data

How the results depend on the processing

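Each of 11 results was recomputed under 9 settings, giving 97 values, of which 43 moved beyond the interval of the reported value and 54 did not. For the number of regions a chosen range of 485.3 to 1092 around 728 took the place of an interval. A −log10 q of at least 10 left 388 regions, 19.7% of those with both peaks, with 49.2% in dense windows, summits 9 bp apart, percentiles of 87.6 and 56.7 in the fibroblast and aRBC lists and a fibroblast peak width of 159 bp. Of the 728 regions 346 were among these 388, and 0.337% of the fibroblast and HD3 regions lay in dense windows under this setting. Lists cut to 11395 peaks each gave 12 bp, 73.8, 40.7 and 151 bp. In both settings the percentiles stayed ranks within the full lists, so dropping weak peaks can by itself raise them. An overlap of at least 50% moved no value, and 200 bp around the summits moved the share with an HD3 or eRBC peak within 1 kb to 22.5%. Without dense windows there were 293 regions (1.25% of union regions and 8.83% of those with both peaks), with 19.1% on chromosomes 11 to 28, 15.4% within 1 kb, 19 bp between summits and an aRBC percentile of 39.1. Windows with at least 5 peaks called dense held 83.4%. With no HD3 or eRBC peak within 1 kb (0% by construction) the regions were 2.25% of union regions and 14.2% of those with both peaks. The next 3 settings were chosen after seeing the data. Leaving out windows dense without the regions' own peaks gave 429 regions (1.79% and 12.2%), 27.5% on chromosomes 11 to 28, 15.4% within 1 kb and an aRBC percentile of 38.9, and 41.1% of the 728 lay in such windows. A background of at most 2 times the minimum gave 311 regions (1.19% and 7.49%), 48.2% in dense windows, 29.3% on chromosomes 11 to 28, 5.14% within 1 kb, percentiles of 78.9 and 47.4 and widths of 134.5 and 147 bp. Without the 6 busiest windows the shares were 2.40%, 15.5% and 52.8%. The cause of these moves was not tested, beyond what the settings remove by construction. Promoter shares, GC content and motifs were not run, since they need a GRCg6a genome and annotation. No paired analysis was possible because there is 1 list per cell type and no column per sample, so that no sample could be left out either. The list minima of 0.644 (HD3) to 3.31 (fibroblasts) show that the lists differ in what a peak needed to be called.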

Other observations

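The longest run of fibroblast and aRBC regions with midpoints at most 500 bp apart held 6 regions on chromosome 5 between 56897899 and 56900392, a stretch of 2494 bp. Their midpoints were 350 to 479 bp apart, with a median of 404.5 bp. The fibroblast fold was between 2.58 and 3.72 and the aRBC fold between 2.55 and 3.87, at pileups of 49 to 71 and 46 to 71. The background was nearly constant over the run, at 18.3 to 18.4 in fibroblasts and 17.4 to 17.7 in aRBC, which is 5.53 to 5.55 and 7.15 to 7.25 times the list minimum. The run is therefore a set of peaks of low fold on a raised background in both lists. Its spacing is bounded by the limit of 500 bp that found it, and how even the spacing is was not tested. No HD3 peak lay closer than 1396 bp and no eRBC peak closer than 1347 bp. The next longest run held 3 regions, and 4 runs held at least 3. This run was singled out after its values were seen.

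The same pattern of lists was found in 559 regions on the chromosomes left out of the rule, which were not analysed further. The union over all chromosomes held 31360 regions.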
